A study of Mus musculus with 12 samples.

Results

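Cell cycle genes were followed over culture of mouse hepatocyte spheroids, split into genes of DNA replication and S phase and genes of mitosis and its approach. The set was given as 49 gene symbols, taken as 1 probe set per symbol (the one with the highest mean where a symbol had several), a rule that uses no measured change. Of the 49 genes, 45 were among the 11861 genes of the array table that could be named: 18 of the 19 replication members and 27 of the 29 mitosis members. Mcm7, Ccnb1, Foxm1 and the G1 cyclin Ccnd1 were not analysed here.

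A dividing cell passes from G1, where cyclin D and cyclin E kinases act on the retinoblastoma proteins and release E2F transcription factors, into S phase, where E2F targets load and fire the replication origins and make deoxynucleotides. A later wave of transcription, under the DREAM complex and its counterpart of B-MYB and FOXM1, then supplies the cyclins, kinases, motors and checkpoint proteins of mitosis. Hepatocytes of the adult liver are mostly out of the cycle and can enter it again after loss of tissue, while in culture they usually show little division unless growth factors drive it.

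The hepatocytes came from C57BL/6 mice of an age not given in the labels. They were cryopreserved as 4 preparations, each a pool of 3 animals of 1 sex, and named here male 1, male 2, female 1 and female 2. Spheroids formed by spontaneous aggregation in plates that cells hardly attach to, carried no genetic change or drug by the labels, and were sampled at days 1, 7 and 14, with 1 expression array per preparation and day. There are thus 12 arrays in 6 groups of sex and day with 2 preparations each, and every test measures spread between pools, not between animals. Levels are log2 values as deposited, so a difference of 1 is a doubling of signal, and levels of different genes are not compared because each probe set has its own response. Array medians lay between 7.47 and 7.53. Every probe set in the table reached at least 4.79 on some array. At the same time 2 of the replication members (Cdc6 and Tk1) and 8 of the mitosis members (Bub1, Bub1b, Kif11, Cenpe, Cenpf, Melk, Ttk and Hmmr) had a group mean under that value, so their lowest readings lie at the dim end of the arrays. Hepatocyte markers matched the labelled cell type: 11 of 12 listed markers were measured, and their summed log2 level, carried by bright probe sets such as Alb, was between 15.31 and 15.50 on every array.

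Mitosis genes were much lower after 14 days in male spheroids and changed little on balance in female spheroids. Replication genes were lower in both sexes, by median less than the mitosis genes in males and more than them in females. In male 1 and male 2 the median log2 change from day 1 to day 14 over the 27 mitosis members was -1.33 and -0.98, and in female 1 and female 2 it was -0.23 and -0.04. Over the 18 replication members the medians were -0.51 and -0.38 in the males and -0.41 and -0.17 in the females. The same median over all 11861 genes, from the fitted changes, was 0.00608 in males and 0.0103 in females. The lower levels in males were already visible at day 7, when the mitosis medians were -0.64 and -0.48 in males but 0.15 and 0.07 in females. These are bulk arrays, in which fewer cycling cells and less transcript per cycling cell cannot be told apart.

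**Figure D1:**
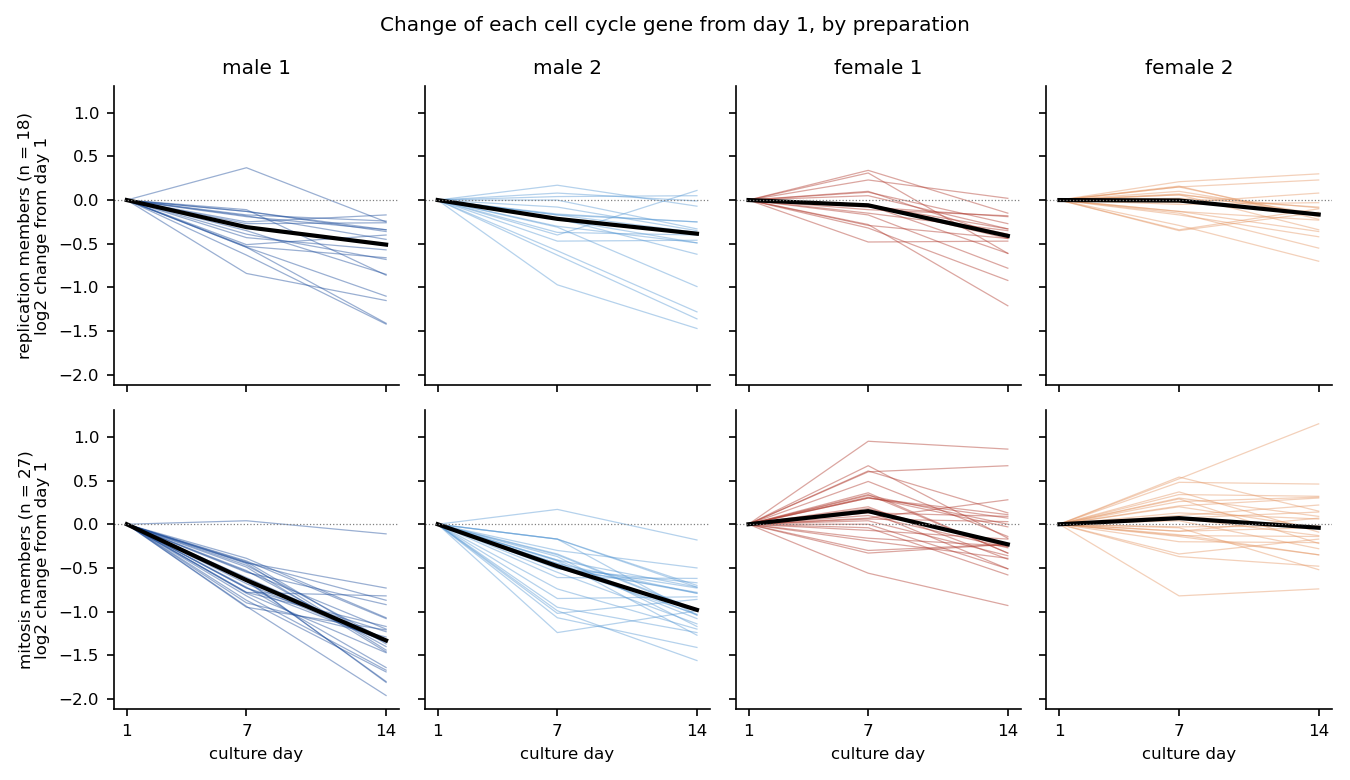
Log2 change from day 1 (vertical axis) against culture day (horizontal axis) for each of the 18 replication members (top) and 27 mitosis members (bottom) in the 4 preparations, with the median as a black line. The mitosis median ended at -1.33 and -0.98 in the male preparations at day 14 and stood at -0.23 and -0.04 in the female ones.

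With the sexes averaged, 28 of 45 members fell between day 1 and day 14 and none rose (limma, Benjamini-Hochberg adjusted p under 0.05 over all 11861 genes). Over all genes 6.8% were lower, 7.59% higher and 14.4% changed in either direction. They were 9 of 18 replication members (Rrm2, Ccne1, Ccne2, Cdc6, Mcm3, Mcm5, Mcm6, Uhrf1 and Gins2) and 19 of 27 mitosis members. In males alone 28 members fell, 6 of replication and 22 of mitosis, against 3.63% of all genes lower. In females alone 1 member fell, Rrm2, against 1.85% of all genes lower. The median fitted change in males was -0.437 over the replication members and -1.16 over the mitosis members, and in females -0.265 and -0.12.

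The difference between the sexes in this change was tested by itself and passed for 0 of 45 members and 0 of 11861 genes by limma, so the male calls are not shown to exceed the female changes. At an unadjusted p under 0.05 the same test gave 27.0 members and 815.0 genes. The lowest adjusted p among members belonged to Kif20a, whose change was 1.21 ± 0.174 lower in males than in females (adjusted p = 0.166), followed by Aurka at -1.21 ± 0.207 (adjusted p = 0.228) and Aurkb at -0.77 ± 0.141 (adjusted p = 0.267). With 1 preparation left out in turn, 8 (without male 1), 15 (without male 2), 11 (without female 1) and 12 (without female 2) members passed with the sexes averaged, while calls over all genes fell from 1706 to between 494 and 826. Aurkb, Ccna2, Cdc6, Rrm2 and Ube2c passed in all 4 of these fits. In males alone 1 member passed without male 1 (Rrm2) and 6 without male 2. With preparation as a block, which pairs the days, 28 members again passed over both sexes and 28 in males. Chek1 and Pcna then took the place of Aurka and Prc1 over both sexes, and Chek1 and Top2a that of Prc1 and Uhrf1 in males.

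**Figure D2:**
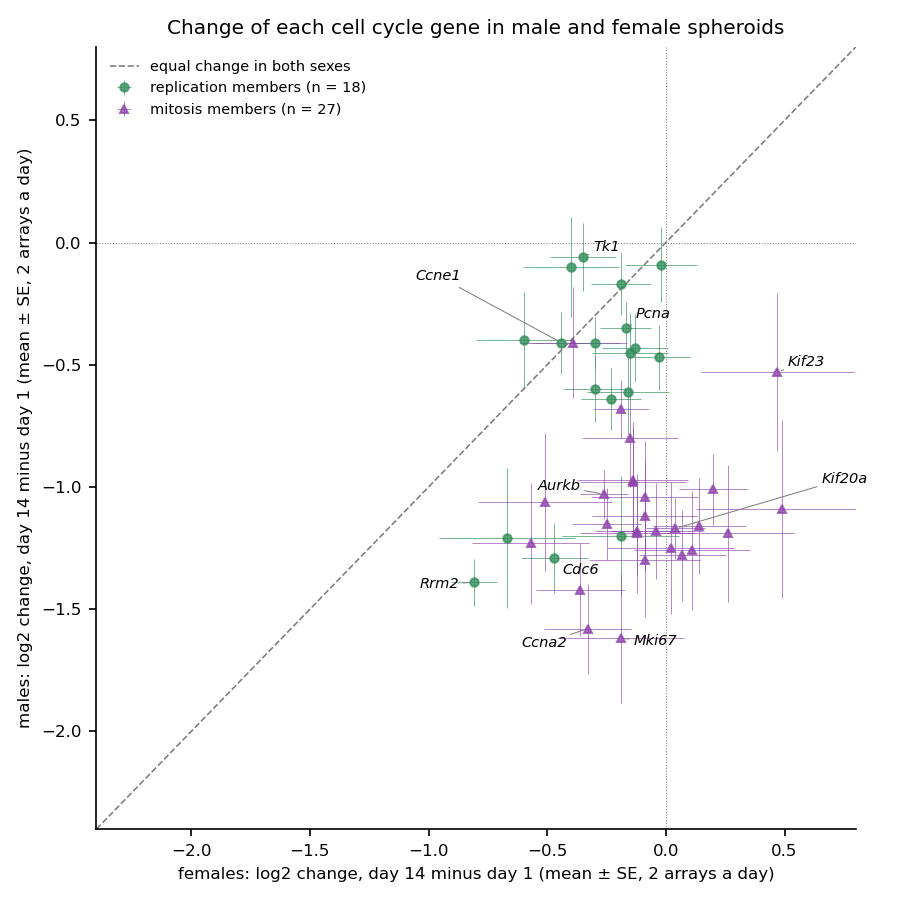
Log2 change from day 1 to day 14 in males (vertical axis) against females (horizontal axis) for the 18 replication members (circles) and 27 mitosis members (triangles), with limma standard errors and a dashed line of equal change. Most mitosis members lie well below the dashed line near 0 in females, while several replication members lie close to it.

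At day 14 all 27 mitosis members were below day 1 in both males, against 19 and 16 of 27 in female 1 and female 2. Of the 18 replication members 18 and 16 were below day 1 in the males and 17 and 15 in the females. The promoters of both phases were set side by side for motifs of cell cycle control. RefSeq promoter windows on GRCm38.p6, from 250 bases before to 50 after the annotated start, matched 15 of 18 measured replication members and 23 of 27 measured mitosis members. The cell cycle homology region TTTGAA, an element through which DREAM can act, was found on either strand in 18 of 23 mitosis windows (78.3%) and 2 of 15 replication windows (13.3%), against 18.1% of all 27025 windows and 12.2% of windows of the genes tested. CCAAT, the box bound by NF-Y, was in 19 of 23 mitosis windows (82.6%) and 10 of 15 replication windows (66.7%), against 37.9% of all windows and 38.7% of windows of the genes tested. TTTGAA and CCAAT occurred together in 17 of 23 mitosis windows (73.9%) and 2 of 15 replication windows, against 7.12% of all windows and 5.27% of those of the genes tested. The E2F-type motifs TTCCCGC or TTGGCGC were in 7 of 15 replication windows (46.7%) and 3 of 23 mitosis windows (13.0%). They were in 6.93% of all windows and 11.9% of windows of the genes tested, a share near that of the mitosis windows. The looser form TTTAAA was in 4 of 15 replication and 5 of 23 mitosis windows, against 13.2% of all windows and 8.79% of those of the genes tested. TTGGCGC and the reverse complement of CCAAT share letters, so neighbouring matches can overlap. A match is a description of letters in the window, not a bound site and not a cause of the changes.

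The 120 bases before the annotated start are printed for 3 replication and 4 mitosis members, to show how the letters differ between the phases. Capitals mark the cell cycle homology region, CCAAT and both E2F-type motifs; a motif that lies on the other strand appears as its reverse complement, such as ATTGG for CCAAT. Each is written 5′ to 3′ on the strand of its gene.
Rrm2, chr12:24708134-24708253, plus strand: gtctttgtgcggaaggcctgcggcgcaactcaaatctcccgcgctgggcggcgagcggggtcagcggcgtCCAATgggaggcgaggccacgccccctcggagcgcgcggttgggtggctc
Rrm1, chr7:102441575-102441694, plus strand: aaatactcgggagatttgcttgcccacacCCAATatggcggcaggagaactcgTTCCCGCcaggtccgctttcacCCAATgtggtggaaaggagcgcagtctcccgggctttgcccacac
Mcm6, chr1:128359706-128359825, minus strand: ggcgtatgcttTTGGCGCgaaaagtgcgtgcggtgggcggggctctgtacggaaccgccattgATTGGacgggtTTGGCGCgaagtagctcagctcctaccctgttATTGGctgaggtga
Cdk1, chr10:69352913-69353032, minus strand: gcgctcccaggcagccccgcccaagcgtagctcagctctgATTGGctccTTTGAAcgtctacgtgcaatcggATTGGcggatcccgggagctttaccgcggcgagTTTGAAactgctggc
Cdc20, chr4:118437344-118437463, minus strand: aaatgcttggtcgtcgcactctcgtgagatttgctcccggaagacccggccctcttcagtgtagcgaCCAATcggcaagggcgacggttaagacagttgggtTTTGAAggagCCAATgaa
Ube2c, chr2:164769809-164769928, plus strand: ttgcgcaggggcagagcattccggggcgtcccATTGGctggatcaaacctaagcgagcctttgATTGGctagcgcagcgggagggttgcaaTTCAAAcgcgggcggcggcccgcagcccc
Mki67, chr7:135716380-135716499, minus strand: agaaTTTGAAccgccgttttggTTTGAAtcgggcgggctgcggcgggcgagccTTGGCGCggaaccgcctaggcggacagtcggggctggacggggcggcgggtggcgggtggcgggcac
Rrm1 carries TTCCCGC between CCAAT boxes and Mcm6 carries TTGGCGC at more than 1 place, while Cdk1, Cdc20, Ube2c and Mki67 each carry TTTGAA in this stretch. Mki67 holds TTGGCGC as well. Rrm2, whose fall passed with any 1 preparation left out over both sexes and in males, shows only a CCAAT box among these motifs in this stretch.

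**Figure D3:**
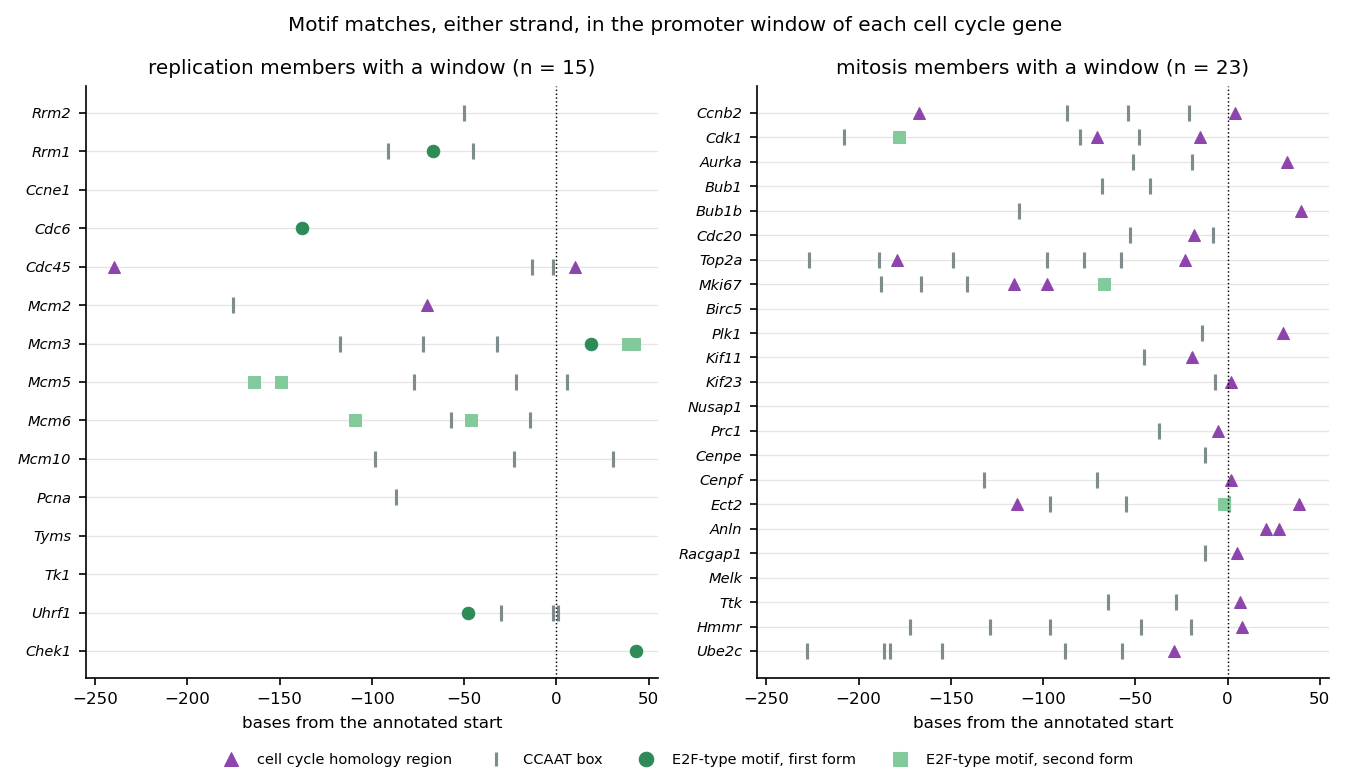
Position of motif matches on either strand, in bases from the annotated start (horizontal axis), for the replication (left) and mitosis (right) members with a window, 1 gene per row. Triangles mark the cell cycle homology region, which is in 18 of 23 mitosis windows and 2 of 15 replication windows; bars mark CCAAT and circles and squares the E2F-type motifs.

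Among enzymes that make deoxynucleotides, ribonucleotide reductase was measured for both subunits. In each series of values that follows, the first value of a pair belongs to preparation 1 and the second to preparation 2 of that sex, and ± gives the standard error of a fitted log2 change. Rrm2, the subunit whose level follows the cell cycle, stood at 9.11 and 9.01 at day 1, 8.58 and 8.38 at day 7 and 7.70 and 7.65 at day 14 in the males, and 9.83 and 9.71, 9.51 and 9.43, and 8.91 and 9.02 in the females. All preparations were lower at each later day without overlap, and the males lay below the females at every day. The fall from day 1 to day 14 was -1.10 ± 0.069 (adjusted p = 7.51e-05) with the sexes averaged, -1.39 ± 0.097 (adjusted p = 0.00142) in males and -0.81 ± 0.097 (adjusted p = 0.00373) in females by limma. The female call was lost without either female preparation. Rrm1, the large subunit, read 7.09 and 6.97 at day 1, 6.70 and 6.79 at day 7 and 6.41 and 6.72 at day 14 in the males, and 7.05 and 7.31, 7.28 and 7.37, and 7.07 and 7.23 in the females. Its male values overlapped between days 7 and 14 but ended below day 1, the female values of day 14 overlapped those of day 1, and no day comparison passed, with -0.25 ± 0.093 (adjusted p = 0.117) over both sexes. Thymidylate synthase (Tyms), which makes the thymidine precursor, read 7.22 and 7.01 at day 1, 6.97 and 7.09 at day 7 and 7.04 and 7.00 at day 14 in the males, and 7.38 and 7.18, 7.23 and 7.39, and 7.03 and 7.48 in the females. Days overlapped in both sexes, and its change of -0.06 ± 0.108 (adjusted p = 0.78) did not pass. Thymidine kinase (Tk1), which salvages thymidine, was at the dim end, with a change of -0.21 ± 0.098 (adjusted p = 0.203).

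Cyclin E activates its kinase at the entry to S phase. Ccne1 levels were 7.55 and 7.44 at day 1, 7.41 and 7.15 at day 7 and 7.21 and 6.96 at day 14 in the males, and 7.78 and 7.97, 7.72 and 7.82, and 7.44 and 7.41 in the females. Both sexes ended below their day 1 values without overlap, by -0.41 in males and -0.44 in females in the fit, and the averaged fall was -0.43 ± 0.089 (adjusted p = 0.0155). With preparation as a block Ccne1 passed in females too (adjusted p = 0.0484). Ccne2 read 6.15 and 6.19 at day 1, 5.31 and 5.60 at day 7 and 5.0 and 4.91 at day 14 in the males, and 6.36 and 6.40, 6.07 and 6.04, and 5.15 and 6.26 in the females. It fell in males by 1.21 (SE 0.286, limma adjusted p = 0.0413), and female 1 and female 2 diverged at day 14, to 5.15 and 6.26. Over both sexes the change was -0.94 ± 0.202 (adjusted p = 0.0166), a call of Ccne2 lost without male 1 or without male 2. Ccne1 passed in none of the 4 fits that leave out a preparation.

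Cdc6 loads the MCM helicase onto origins. Its levels were 5.31 and 5.65 at day 1, 4.77 and 4.68 at day 7 and 4.20 and 4.18 at day 14 in the males, and 5.77 and 5.72, 6.08 and 5.77, and 5.17 and 5.38 in the females. The males were below the females at every day and lower at each later day without overlap, while the females were lower than at day 1 only at day 14. The fall was -0.88 ± 0.10 (adjusted p = 0.00115) over both sexes and -1.29 ± 0.142 (adjusted p = 0.0031) in males, with -0.47 ± 0.142 (adjusted p = 0.107) in females.

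The MCM helicase unwinds DNA at the fork, and Mcm2 to Mcm6 were measured. Mcm5 stood at 6.80 and 6.47 at day 1, 6.17 and 6.16 at day 7 and 5.38 and 5.48 at day 14 in the males, and 6.82 and 6.86, 6.76 and 7.02, and 6.21 and 7.09 in the females. Male levels were lower at each later day without overlap, and at day 14 female 1 was lower and female 2 higher than at day 1. Mcm5 fell by 1.20 in males (SE 0.246, limma adjusted p = 0.0252), with -0.19 ± 0.246 (adjusted p = 0.741) in females. Mcm3 read 7.32 and 7.31 at day 1, 6.79 and 7.10 at day 7 and 6.66 and 6.69 at day 14 in the males, and 7.71 and 7.55, 7.42 and 7.50, and 7.27 and 7.52 in the females. Its male values were lower at each later day and lay below the female values on each day, with a fall of -0.64 ± 0.126 (adjusted p = 0.0221) in males and -0.44 ± 0.089 (adjusted p = 0.0141) over both sexes. Mcm6 read 8.30 and 8.10 at day 1, 7.87 and 7.94 at day 7 and 7.72 and 7.85 at day 14 in the males, and 8.41 and 8.35, 8.51 and 8.42, and 7.98 and 8.18 in the females. It ended below day 1 in all 4 preparations, and the averaged fall was -0.35 ± 0.075 (adjusted p = 0.016). Mcm2 read 7.71 and 7.65 at day 1, 7.53 and 7.28 at day 7 and 7.25 and 7.25 at day 14 in the males, and 7.83 and 7.84, 7.88 and 7.82, and 7.50 and 7.92 in the females. Male values were lower at each later day, female 2 ended slightly above its day 1 value, and no comparison passed for Mcm2, with -0.28 ± 0.098 (adjusted p = 0.0986) over both sexes. For Mcm4 the change was -0.30 ± 0.113 (adjusted p = 0.122).

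Gins2 and Cdc45 join MCM in the active helicase, and Mcm10 helps to start it. Gins2 read 6.64 and 6.82 at day 1, 6.44 and 6.35 at day 7 and 6.29 and 6.36 at day 14 in the males, and 6.63 and 6.90, 6.46 and 6.74, and 5.85 and 6.48 in the females. It was lower at day 14 than at day 1 in every preparation, with changes of -0.40 in males and -0.60 in females, and the averaged fall was -0.50 ± 0.141 (adjusted p = 0.0475). The female change passed only with preparation as a block (adjusted p = 0.044). Cdc45 and Mcm10 did not pass, with changes of -0.25 ± 0.144 (adjusted p = 0.298) and -0.18 ± 0.089 (adjusted p = 0.233). Pcna, the sliding clamp of the polymerases, read 9.98 and 9.77 at day 1, 9.84 and 9.77 at day 7 and 9.61 and 9.44 at day 14 in the males, and 9.99 and 10.00, 10.09 and 10.02, and 9.73 and 9.92 in the females. Its values at day 14 lay below those of day 1 in both sexes, yet the change of -0.26 ± 0.076 (adjusted p = 0.0545) missed the threshold. With preparation as a block, Pcna passed at an adjusted p of 0.049. Uhrf1, which brings the maintenance DNA methyltransferase to new DNA, read 7.39 and 7.12 at day 1, 7.28 and 7.04 at day 7 and 6.53 and 6.77 at day 14 in the males, and 7.62 and 7.57, 7.58 and 7.73, and 7.24 and 7.36 in the females. It fell by 0.60 ± 0.134 (adjusted p = 0.0338) in males and by 0.45 ± 0.095 (adjusted p = 0.0156) over both sexes, with most of the male step after day 7. The male call of Uhrf1 was lost with preparation as a block (adjusted p = 0.0556). Chek1, the kinase of the replication checkpoint, had a difference of -0.38 ± 0.122 (adjusted p = 0.0721) over both sexes and -0.61 ± 0.173 (adjusted p = 0.0776) in males. Both passed with preparation as a block, at adjusted p of 0.0399 and 0.044.

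**Figure D4:**
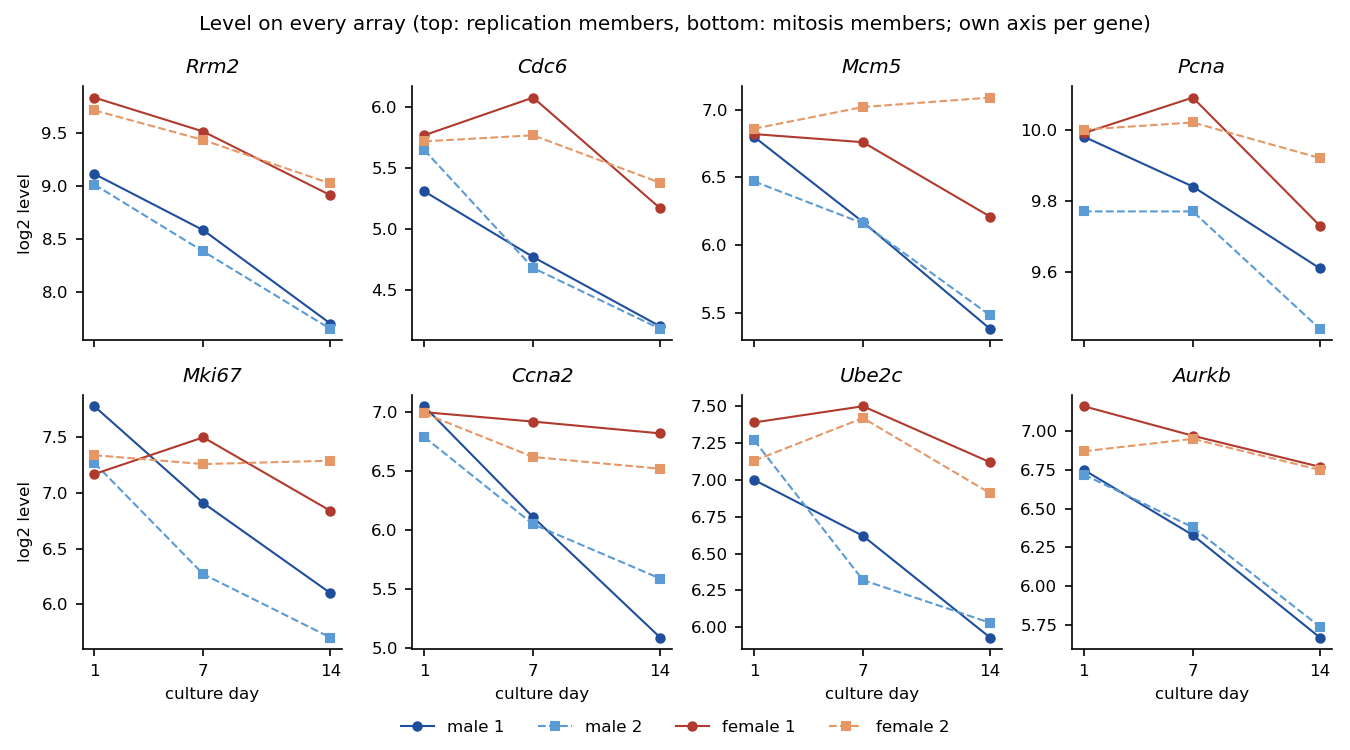
Log2 level (vertical axis, own range per gene) on each of the 12 arrays against culture day (horizontal axis) for 4 replication members (top) and 4 mitosis members (bottom); lines join the arrays of 1 preparation. Rrm2 and Cdc6 were lower in males than in females at every day, whereas Mki67 and Ccna2 overlapped at day 1 and separated by day 7.

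Cyclin A2, cyclin B2 and their kinase Cdk1 drive the cell into mitosis. Ccna2 read 7.05 and 6.79 at day 1, 6.11 and 6.05 at day 7 and 5.09 and 5.59 at day 14 in the males, and 7.00 and 6.99, 6.92 and 6.62, and 6.82 and 6.52 in the females. The sexes overlapped at day 1 and separated at day 7 and day 14, with a male fall of -1.58 ± 0.184 (adjusted p = 0.00367), -0.33 ± 0.184 (adjusted p = 0.386) in females and -0.95 ± 0.130 (adjusted p = 0.00247) over both. Ccnb2 stood at 7.56 and 7.34 at day 1, 6.83 and 6.79 at day 7 and 6.33 and 6.20 at day 14 in the males, and 7.34 and 7.24, 7.41 and 7.20, and 7.62 and 6.72 in the females. Male values were lower at each later day, while female 1 and female 2 parted at day 14, to 7.62 and 6.72, and the male fall was -1.19 ± 0.244 (adjusted p = 0.0258). Cdk1 measured 6.50 and 6.13 at day 1, 6.07 and 5.95 at day 7 and 5.13 and 5.42 at day 14 in the males, and 6.54 and 6.49, 6.86 and 6.15, and 6.53 and 6.32 in the females. It fell by 1.04 in males (SE 0.226, limma adjusted p = 0.0315), with -0.09 ± 0.226 (adjusted p = 0.88) in females, where the days overlapped.

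Mki67, the antigen of the widely used proliferation stain Ki-67, read 7.78 and 7.27 at day 1, 6.91 and 6.27 at day 7 and 6.10 and 5.70 at day 14 in the males, and 7.17 and 7.34, 7.50 and 7.26, and 6.84 and 7.29 in the females. Male levels were lower at each later day without overlap, female days overlapped, and male 1 had the highest value of all at day 1. Mki67 fell by 1.62 in males (SE 0.265, limma adjusted p = 0.0109), a fold of 3.08, with -0.19 ± 0.265 (adjusted p = 0.765) in females. Top2a, the topoisomerase that untangles sister chromatids, stood at 6.13 and 5.63 at day 1, 5.23 and 4.77 at day 7 and 4.83 and 4.80 at day 14 in the males, and 5.98 and 5.69, 5.41 and 6.06, and 5.04 and 5.60 in the females. All preparations ended lower than they began; the averaged fall was -0.78 ± 0.199 (adjusted p = 0.0332), while neither sex passed alone. In males the change of Top2a was -1.06 ± 0.282 (adjusted p = 0.0624), which passed with preparation as a block (adjusted p = 0.0485). Birc5 (survivin), which works with Aurkb on centromeres, missed the threshold in males at -0.80 ± 0.202 (adjusted p = 0.0522).

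Several members are mitotic kinases. Aurka, which matures the spindle poles, read 6.81 and 6.51 at day 1, 6.13 and 6.01 at day 7 and 5.46 and 5.84 at day 14 in the males, and 6.55 and 6.42, 6.68 and 6.76, and 6.63 and 6.74 in the females. Male values were lower at each later day, female values at day 14 were above those of day 1 in both preparations, and the male fall was -1.01 ± 0.146 (adjusted p = 0.00738) with 0.20 ± 0.146 (adjusted p = 0.502) in females. The averaged fall of Aurka, -0.40 ± 0.103 (adjusted p = 0.0344), was lost with preparation as a block (adjusted p = 0.0675). Aurkb, the kinase of the chromosomal passenger complex, read 6.75 and 6.72 at day 1, 6.33 and 6.38 at day 7 and 5.67 and 5.74 at day 14 in the males, and 7.16 and 6.87, 6.97 and 6.95, and 6.77 and 6.75 in the females. Males lay below females at every day, and it fell in males by 1.03 ± 0.10 (adjusted p = 0.0024) and over both sexes by 0.65 ± 0.071 (adjusted p = 0.000976). Plk1, a kinase of mitotic entry and exit, read 7.90 and 7.33 at day 1, 7.12 and 6.88 at day 7 and 6.43 and 6.25 at day 14 in the males, and 7.46 and 7.36, 7.76 and 7.49, and 7.53 and 7.42 in the females. Its males were lower at each later day from day 1 levels that overlapped those of the females, with a male fall of -1.28 ± 0.185 (adjusted p = 0.00739) and 0.07 ± 0.185 (adjusted p = 0.892) in females.

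The spindle checkpoint kinases Bub1 and Ttk hold anaphase until chromosomes attach, and Melk is a kinase of dividing cells; these probe sets were dim. Bub1 read 5.56 and 5.16 at day 1, 4.93 and 5.0 at day 7 and 3.76 and 4.44 at day 14 in the males, and 5.96 and 5.49, 5.80 and 5.97, and 5.71 and 5.95 in the females. Males were lower at each later day and ended under all female values, with a male fall of -1.26 ± 0.244 (adjusted p = 0.0206). Ttk measured 5.74 and 5.81 at day 1, 5.19 and 4.74 at day 7 and 4.82 and 4.40 at day 14 in the males, and 5.74 and 5.51, 6.35 and 6.05, and 5.87 and 5.65 in the females. Female values at day 7 were above those of day 1 in both preparations, a difference that did not pass, and the male fall was -1.16 ± 0.196 (adjusted p = 0.0123). Melk stood at 5.73 and 5.22 at day 1, 5.28 and 4.76 at day 7 and 4.30 and 4.42 at day 14 in the males, and 5.19 and 5.05, 5.68 and 5.25, and 5.05 and 5.01 in the females. It fell in males by 1.12 ± 0.221 (adjusted p = 0.0227), and the female values of day 14 overlapped those of day 1. Bub1b, the partner of Bub1 in the checkpoint, had -1.09 ± 0.365 (adjusted p = 0.124) in males and 0.49 ± 0.365 (adjusted p = 0.521) in females, neither past the threshold.

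Cdc20 and Ube2c serve the anaphase-promoting complex, which marks cyclin B for destruction. Cdc20 read 6.35 and 6.31 at day 1, 5.89 and 5.82 at day 7 and 5.02 and 5.28 at day 14 in the males, and 6.14 and 5.72, 6.50 and 6.02, and 5.81 and 5.81 in the females. The males began above the females and ended below them, with a male fall of -1.18 ± 0.180 (adjusted p = 0.00864) and -0.12 ± 0.180 (adjusted p = 0.776) in females. Ube2c measured 7.00 and 7.27 at day 1, 6.62 and 6.32 at day 7 and 5.93 and 6.03 at day 14 in the males, and 7.39 and 7.13, 7.50 and 7.42, and 7.12 and 6.91 in the females. It ended below day 1 in all 4 preparations and fell by 1.15 ± 0.147 (adjusted p = 0.00452) in males and 0.70 ± 0.104 (adjusted p = 0.00349) over both sexes, with -0.25 ± 0.147 (adjusted p = 0.409) in females.

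Motors and microtubule proteins build the spindle. Kif11, which pushes the poles apart, read 5.76 and 5.55 at day 1, 5.15 and 5.38 at day 7 and 4.44 and 4.51 at day 14 in the males, and 6.07 and 5.46, 5.74 and 5.52, and 5.84 and 5.59 in the females. Kif20a, a motor of the central spindle, read 7.11 and 7.03 at day 1, 6.32 and 6.66 at day 7 and 5.93 and 5.87 at day 14 in the males, and 6.90 and 7.09, 7.20 and 7.06, and 7.01 and 7.07 in the females. In both genes the male arrays at day 14 lay below every other array, and the female days overlapped. The male falls were -1.18 ± 0.197 (adjusted p = 0.0119) for Kif11 and -1.17 ± 0.123 (adjusted p = 0.00269) for Kif20a, and the female changes were -0.04 ± 0.197 (adjusted p = 0.932) and 0.04 ± 0.123 (adjusted p = 0.891). Tpx2, which activates Aurka on the spindle, stood at 6.89 and 6.31 at day 1, 6.24 and 5.91 at day 7 and 5.10 and 5.27 at day 14 in the males, and 6.53 and 6.48, 6.58 and 6.35, and 6.17 and 6.13 in the females. It ended below day 1 in all preparations, with falls of -1.42 ± 0.189 (adjusted p = 0.00539) in males and -0.89 ± 0.134 (adjusted p = 0.00382) over both sexes. Prc1, which bundles the midzone, measured 6.67 and 6.20 at day 1, 6.18 and 5.90 at day 7 and 5.21 and 5.70 at day 14 in the males, and 6.63 and 6.22, 6.33 and 6.27, and 6.40 and 6.16 in the females. Its male fall was -0.98 ± 0.223 (adjusted p = 0.0369), a call lost with preparation as a block (adjusted p = 0.0509), as was its averaged call (adjusted p = 0.0614). Nusap1, which stabilises spindle microtubules, read 6.96 and 6.75 at day 1, 6.24 and 5.73 at day 7 and 5.32 and 5.89 at day 14 in the males, and 6.91 and 6.38, 7.09 and 6.59, and 6.65 and 6.67 in the females. In males it fell by 1.25 ± 0.269 (adjusted p = 0.0307), and in females the change was 0.02 ± 0.269 (adjusted p = 0.982).

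Hmmr, a spindle protein and hyaluronan receptor, read 5.62 and 5.56 at day 1, 4.67 and 5.08 at day 7 and 4.41 and 4.83 at day 14 in the males, and 5.43 and 5.24, 5.40 and 5.50, and 4.86 and 5.55 in the females. It fell in males by 0.97 ± 0.235 (adjusted p = 0.0447), with a female 1 value below and a female 2 value above its day 1 level. Cenpe, the motor that carries chromosomes to the spindle centre, was dim at 4.93 and 5.04 at day 1, 4.41 and 4.70 at day 7 and 3.53 and 4.06 at day 14 in the males, and 4.31 and 5.24, 4.92 and 5.11, and 4.98 and 5.10 in the females. Its male fall was -1.19 ± 0.281 (adjusted p = 0.0418), and the female values at day 14 lay within their day 1 range, with 0.26 ± 0.281 (adjusted p = 0.68). Cenpf, another kinetochore protein, was lower at day 14 in every preparation but did not pass, with -0.40 ± 0.160 (adjusted p = 0.134) over both sexes. Kif23, the motor partner of Racgap1, did not pass in either sex, with -0.53 ± 0.324 (adjusted p = 0.415) in males and 0.47 ± 0.324 (adjusted p = 0.492) in females.

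Cytokinesis depends on a ring organised by Ect2, Racgap1 and Anln. Ect2 read 7.63 and 7.59 at day 1, 7.19 and 6.97 at day 7 and 6.90 and 6.96 at day 14 in the males, and 7.59 and 7.78, 7.90 and 7.66, and 7.56 and 7.43 in the females. It ended below day 1 in all preparations, with a male fall of -0.68 ± 0.119 (adjusted p = 0.0147) and an averaged fall of -0.43 ± 0.084 (adjusted p = 0.0117). Racgap1 stood at 7.05 and 6.55 at day 1, 6.32 and 6.13 at day 7 and 5.72 and 5.28 at day 14 in the males, and 6.74 and 6.57, 6.80 and 6.37, and 6.77 and 6.36 in the females. The male fall of -1.30 ± 0.234 (adjusted p = 0.0154) compared with -0.09 ± 0.234 (adjusted p = 0.888) in females. Anln measured 6.99 and 6.68 at day 1, 6.18 and 6.18 at day 7 and 5.32 and 5.89 at day 14 in the males, and 6.44 and 6.95, 6.64 and 6.12, and 6.04 and 6.21 in the females. Every preparation was lower at day 14 than at day 1, and the fall was -1.23 ± 0.247 (adjusted p = 0.0238) in males, with -0.57 ± 0.247 (adjusted p = 0.252) in females.

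The steps between days passed for few members. From day 1 to day 7 the fall of Rrm2 was -0.45 ± 0.069 (adjusted p = 0.0121) over both sexes, 1 of 45 members against 1.98% of all genes lower, and -0.58 ± 0.097 (adjusted p = 0.048) in males, against 0.278%. In females 0 of 45 members passed at this step (2 at an unadjusted p under 0.05, against 1691 of 11861 genes), where 0.32% of all genes were lower. From day 7 to day 14 Rrm2 at -0.65 ± 0.069 (adjusted p = 0.0123) and Aurkb at -0.42 ± 0.071 (adjusted p = 0.0499) passed over both sexes, against 0.185% of all genes lower. Aurkb lost that call with preparation as a block, as did Rrm2 in males from day 1 to day 7. In neither sex alone did a member pass at the later step, where 0.0169% of all genes in males and 0.0337% in females passed as lower. At an unadjusted p under 0.05 limma gave 22 members and 1185 of 11861 genes in males, and 8 members and 1059 genes in females. Direction was more regular than the calls. In males both arrays of day 7 lay below both of day 1 for 12 of 18 replication and 24 of 27 mitosis members, against 23.5% of all genes. In females the counts were 6 of 18 and 1 of 27, against 21.5%. At day 14 both arrays lay below both of day 1 for 15 of 18 and 26 of 27 members in males (24.9% of all genes) and 13 of 18 and 8 of 27 in females (23.0%). The exception among male mitosis members was Kif23.

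The phases also differed in when males parted from females. At day 1 both male arrays lay below both female arrays for 14 of 18 replication members but 2 of 27 mitosis members (Aurkb and Cenpf), against 20.1% of all genes. By day 7 the counts were 17 of 18 and 24 of 27, against 21.7%, and at day 14 they were 14 of 18 and 26 of 27, against 20.7%. The median male minus female difference over the mitosis members was 0.142 at day 1, -0.609 at day 7 and -1.03 at day 14, and over the replication members -0.208, -0.475 and -0.413. Over all genes these medians were 0.0213, 0.0102 and 0.0142. Few of these differences passed limma over all genes. At day 1 the male minus female difference of Rrm2 was -0.71 ± 0.097 (adjusted p = 0.0171), 1 of 45 members against 0.422% of all genes lower. At day 7 Cdc6, Rrm2, Ttk and Ube2c passed, against 0.16%. At day 14 the differences of 12 members passed, against 0.809%: Cdc6, Mcm3 and Rrm2 of replication, and Aurka, Aurkb, Bub1, Ccna2, Kif11, Kif20a, Plk1, Ttk and Ube2c of mitosis. Differences at day 14 reached -1.73 ± 0.244 (adjusted p = 0.017) for Bub1 and -1.33 ± 0.184 (adjusted p = 0.0164) for Ccna2. Without male 1 or without female 1 no member passed at day 14, without male 2 there were 6 and without female 2 there were 4, and at days 1 and 7 none passed with any preparation left out.

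Other genes of the same processes were taken from wider lists. Of 48 measured replication genes outside the set, 4 fell and 1 rose over both sexes from day 1 to day 14 (limma adjusted p under 0.05), with a median fitted change of -0.155. Over all genes 6.8% were lower and 7.59% higher, so the share that fell is near that of all genes and the share that rose is below it. The 4 that fell were Chaf1b, a histone chaperone of the fork, at -0.53 (adjusted p = 0.0164), Dbf4, the activator of the origin kinase Cdc7, at -0.44 (adjusted p = 0.0165), Pole, a replicative polymerase, at -0.51 (adjusted p = 0.0424), and Tipin, a fork protection factor, at -0.49 (adjusted p = 0.019). Orc3 of the origin recognition complex rose by 0.39 (adjusted p = 0.00247). In males Dbf4, Pole, Tipin and the chromatin remodeller Hells fell and Orc3 rose. Hells was dim, with a group mean under 4.79. In females Orc3 rose, a call lost with any 1 preparation left out, and no gene of the list fell. In males none of the 48 passed without male 1 or without male 2. Over both sexes 0 fell without male 1 or without female 1, 2 without female 2 and 4 without male 2. Pole lost its averaged call with preparation as a block (adjusted p = 0.0545), and Pole and Dbf4 lost theirs in males (adjusted p = 0.0556 and 0.0532).

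Of 56 measured mitosis genes outside the set, 16 fell and 1 rose over both sexes, with a median of -0.371, against 6.8% of all genes lower and 7.59% higher. The 16 became 4 without male 1, 12 without male 2, 5 without female 1 and 5 without female 2, and none rose in these fits. The largest falls past the threshold were Ncapg of condensin at -1.12 (adjusted p = 0.0262), Sgo1, which guards centromere cohesion, at -0.92 (adjusted p = 0.0191), Shcbp1 at -0.84 (adjusted p = 0.00247), Trip13, which resets the spindle checkpoint, at -0.82 (adjusted p = 0.00164), and Cenpa, the histone of the centromere, at -0.70 (adjusted p = 0.0113). Ncapg, Sgo1 and Shcbp1, and Cit and Tacc3 named below, were among 20 of the 56 with a group mean under 4.79, the dim end of the arrays. Trip13 passed with any 1 preparation left out. In males 16 fell and none rose, against 3.63% of all genes lower, with a median of -0.594, led by Sgo1, Shcbp1, Dlgap5, Ncaph and Trip13. In females none fell and Cit, a kinase of cytokinesis, rose by 0.56 (adjusted p = 0.0288), a call lost with any 1 preparation left out, with a median of -0.0589. At day 14, 9 of the 56 were lower in males than in females, against 0.809% of all genes, Tacc3 with the lowest adjusted p at -0.92 (adjusted p = 0.00674). The 9 became 0 without male 1 or without female 1, 1 without female 2 and 4 without male 2, and Tacc3 passed only without female 2. No gene of the list passed in males from day 1 to day 14 without male 1, and 6 did without male 2.

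Histone genes of the replication-coupled families, taken by symbol prefix, are made in S phase with new DNA. Of 52 measured, 15 fell and 1 (H2ac21, with a group mean under 4.79) rose over both sexes, against 6.8% of all genes lower and 7.59% higher. The median over the 52 was -0.229. In males 12 fell, with a median of -0.42, against 3.63% of all genes lower. In females none passed in either direction (4 at an unadjusted p under 0.05, and 2315 of all genes), with a median of -0.0617. H3c13 fell in males by 0.86 (adjusted p = 0.00355), and H3c14 and H3c15, which had identical values and count as 1 reading, by 0.90 (adjusted p = 0.00441). Copies of these genes are nearly identical, so a probe set may read several of them, and the prefix also takes in a few that are not tied to replication, such as H1f10. In males none of the 52 fell without male 1 or without male 2. Over both sexes 0 fell without male 1, 4 without male 2, 5 without female 1 and 6 without female 2, and no histone gene rose with preparation as a block.

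Of 19 measured E2F, retinoblastoma and DREAM genes, 1 fell over both sexes, a share no higher than the 6.8% of all genes lower. It was E2f8, a repressor that is itself an E2F target, at -1.04 (adjusted p = 0.0239), with -1.56 (adjusted p = 0.0325) in males and -0.52 (adjusted p = 0.466) in females. E2f8 had a group mean under 4.79, the dim end of the arrays. The averaged call of E2f8 remained only without female 2, and the male call was lost without male 1, without male 2 and with preparation as a block (adjusted p = 0.0616). Of 12 G1 cyclins and kinases, 1 rose and 1 fell over both sexes, near the shares of all genes (7.59% higher and 6.8% lower). Ccnd2, a D-type cyclin that activates Cdk4 and Cdk6, rose. Cdkn3, a phosphatase that despite its symbol is expressed with the mitosis genes, fell by 0.65 (limma adjusted p = 0.0472). The averaged call of Cdkn3 was lost with preparation as a block (adjusted p = 0.07) and remained only without male 2. Ccnd2 read 7.52 and 7.10 at day 1, 8.41 and 8.30 at day 7 and 8.66 and 8.55 at day 14 in the males, and 7.81 and 8.23, 8.68 and 8.77, and 9.0 and 9.28 in the females. It was higher at each later day in every preparation. The rise was 1.20 ± 0.126 (adjusted p = 0.000811) over both sexes and passed with any 1 preparation left out, and it passed in males at 1.29 (adjusted p = 0.00617) and in females at 1.12 (adjusted p = 0.0107). The male call was lost without either male preparation and the female call without either female preparation.

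All 7 listed CDK inhibitors were measured. Over both sexes 2 rose and 1 fell from day 1 to day 14, against 7.59% of all genes higher and 6.8% lower. Cdkn2a, whose locus encodes an inhibitor of the cyclin D kinases and, in another reading frame, an activator of the p53 pathway, read 3.51 and 3.48 at day 1, 3.84 and 4.60 at day 7 and 5.83 and 5.32 at day 14 in the males, and 3.89 and 3.13, 4.49 and 4.31, and 5.11 and 4.90 in the females. It was higher at each later day in every preparation, and it rose by 1.79 ± 0.214 (limma adjusted p = 0.00138). It was dim, under 4.79 on every array of days 1 and 7. Every probe set in the table reached 4.79 on some array, which Cdkn2a did only at day 14. Its place in the table thus rests on the day at which it was high, and its rise is a description only. Its neighbour Cdkn2b, another inhibitor of the cyclin D kinases, rose by 0.40 (adjusted p = 0.00984) over both sexes and 0.63 (adjusted p = 0.0131) in males. The averaged call of Cdkn2b remained only without female 1, and its male call was lost without either male preparation. Cdkn2d fell by 0.34 (adjusted p = 0.038), a call lost with any 1 preparation left out. Cdkn1a, the inhibitor induced by p53, read between 11.46 and 11.69 on all arrays, with a change of 0.04 (adjusted p = 0.738). Cdkn1b, Cdkn1c and Cdkn2c did not pass, at 0.08 (adjusted p = 0.636), 0.06 (adjusted p = 0.744) and -0.35 (adjusted p = 0.181).

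Markers of other liver cells moved over the same days. Of 17 measured of 18 listed markers of stellate cells and fibroblasts, cells that can divide in culture, 12 fell from day 1 to day 14 in males and 3 in females (limma adjusted p under 0.05), against 3.63% and 1.85% of all genes lower. The male count became 3 without male 1 and 8 without male 2, and the female count 1 without female 1 and 0 without female 2. Their median change was -2.35 and -1.76 in male 1 and male 2, and -0.28 and -0.56 in female 1 and female 2, a split between the sexes in the same direction as that of the mitosis members. Other mitosis genes, histones, endothelial and macrophage markers also had medians lower in both males than in both females. The summed log2 level of the stellate cell and fibroblast markers was 12.21 to 12.25 in males and 12.22 to 12.29 in females at day 1. At day 14 it was 9.35 to 10.30 in males and 11.78 to 11.94 in females. At day 14, 11 and 9 of the 17 read under 4.79 in male 1 and male 2, and 0 and 2 in female 1 and female 2. Of 9 measured of 15 endothelial markers, 4 fell in males and 2 in females, against the same shares of all genes, with medians of -1.02 and -1.85 in males and -0.72 and -0.99 in females. The male count became 3 without male 1 and 2 without male 2, and the female count 0 without either female preparation. Their summed level ranged from 9.61 to 10.00 at day 1 and from 8.83 to 9.47 at day 14. At day 14, 7 and 6 of the 9 read under 4.79 in male 1 and male 2, and 3 and 5 in female 1 and female 2. At day 1 these counts were 5 and 0, and 1 and 1. In both males 8 of the 9 were lower at day 14, while Flt1 went from 7.24 and 7.33 to 8.48 and 8.15. The male sums of 8.90 and 8.83 at day 14 thus rest largely on Flt1.

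**Figure D5:**
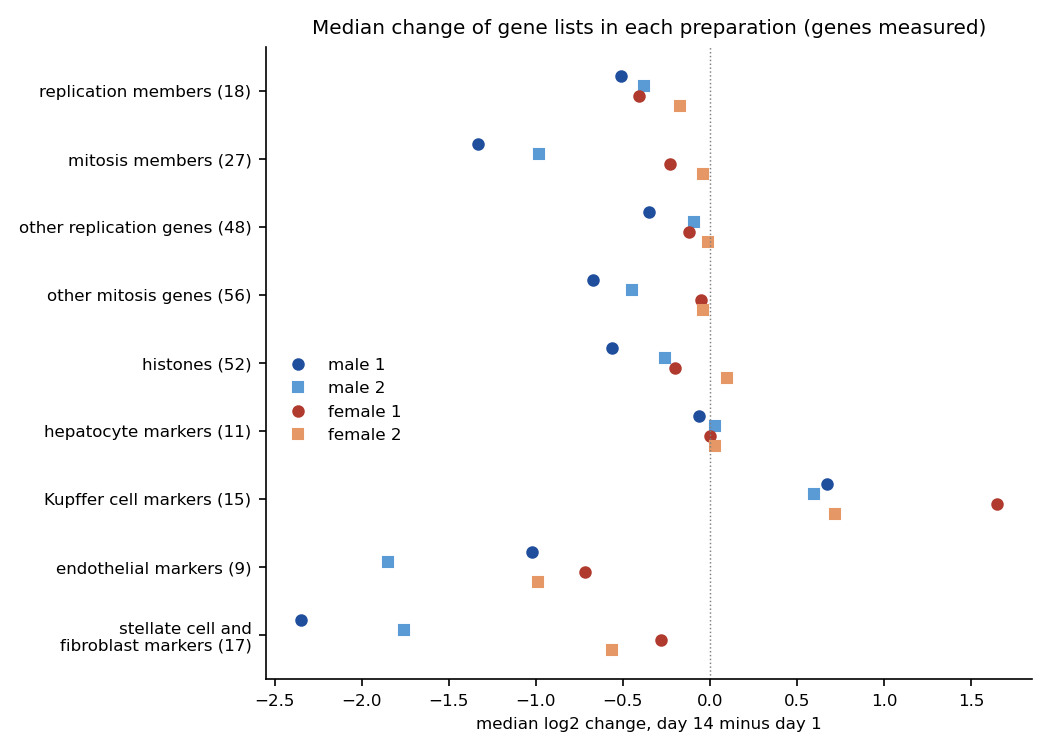
Median log2 change from day 1 to day 14 (horizontal axis) in each of the 4 preparations for the cell cycle members, the wider lists and the cell type markers, with the number of genes measured in parentheses. Medians were lower in both male than in both female preparations for the mitosis members, other mitosis genes and histones. The same held for the stellate cell and fibroblast, endothelial and Kupffer cell markers. It did not hold for the replication members, other replication genes and hepatocyte markers.

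Markers of Kupffer cells and macrophages, 15 of 18 measured, went the other way, with medians of 0.67 and 0.60 in males and 1.65 and 0.72 in females, and 2 rose over both sexes, against 7.59% of all genes higher. That count became 11 with preparation as a block, 8 without female 2 and 0 without either male preparation. Of 5 measured of 10 cholangiocyte markers 2 rose over both sexes, against the same 7.59%, and 1 did without male 1 or without male 2. Lymphocyte markers were measured for 0 of 15 and erythroid and neutrophil markers for 1 of 14 (Tfrc, which dividing cells also make, and which fell in males, a call lost without either male preparation). Hepatocyte markers had medians between -0.06 and 0.03, and none of the 11 passed from day 1 to day 14 in either sex. That median rests on probe sets near the top of the scale: Alb read 12.71 to 12.78, where the highest value of the table was 12.84. Cytochromes P450 of the list lay lower. Cyp2e1 read 4.56 and 5.65 at day 1, 3.78 and 4.67 at day 7 and 2.87 and 3.38 at day 14 in the males, and 6.44 and 5.62, 7.94 and 6.00, and 7.14 and 4.24 in the females. Cyp3a11 read 7.55 and 7.78, 7.56 and 8.59, and 5.52 and 6.98 in the males, and 9.46 and 10.40, 10.24 and 10.92, and 9.90 and 10.17 in the females. Both ended below day 1 in both males, by -1.97 ± 0.94 (adjusted p = 0.283) for Cyp2e1 and -1.42 ± 0.525 (adjusted p = 0.162) for Cyp3a11, changes that passed with preparation as a block (adjusted p = 0.0444 and 0.0355). At day 14 Cyp3a11 was lower in males than in females by -3.79 ± 0.525 (adjusted p = 0.0164), a call that remained only without male 2. The part that the stellate cell, fibroblast and endothelial RNA takes in the lower mitosis and replication levels was not tested.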

How the data were processed

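Total RNA of spheroids from 4 hepatocyte preparations at 3 culture days was read on 12 expression arrays. The values the authors deposited are log2 intensities summarised per probe set. Per the submitters' processing notes they were made with RMA, Transcriptome Analysis Console 4.0 and Partek 7.0; a build was not given in the sources used here. Probe sets were named through the platform's gene table: of 13081, 11889 had 1 symbol, 0 several and 1192 none, and 19 symbols on several probe sets were reduced to the one with the highest mean, leaving 11861 genes.

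Groups were taken from the labels, with a mean for each of 6 groups of sex and day. limma 3.58.1 in R 4.3.3 was fitted to all genes at once with its default moderation of the variance (no trend, not robust), two-sided, with Benjamini-Hochberg adjustment and a threshold of 0.05, and was tested on simulated data. Medians over lists are descriptions without a test. The members and lists were chosen with earlier results of these data known. Named were all measured members, passing genes of the other lists (up to 5 per list and comparison by size of change) and all CDK inhibitors. Values on every array are given for members that passed in any day or sex comparison and for Pcna, Mcm2, Tyms and Rrm1.

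Preparations were sampled at each day, so days are paired by preparation. Within a sex, deviations of the same preparation from the group means correlated across genes at 0.078, 0.066 and 0.324 in females and 0.104, 0.036 and 0.224 in males (days 1 and 7, 1 and 14, and 7 and 14). Alternatives were a preparation block, trend and robust moderation, median centring, another quantile normalization, a filter at the 20th percentile of gene means, the mean of probe sets, and each preparation left out. The number of arrays limits the precision.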

Additional observations from a re-analysis of the deposited data

Results flagged for a closer look

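Between day 1 and day 7 the median log2 change over the 27 mitosis members had opposite signs in the sexes. It was -0.64 in male 1 and -0.48 in male 2, and 0.15 in female 1 and 0.07 in female 2. The result stands out because the median was lower in both male preparations and slightly higher in both female preparations. That the sexes differ for this list was already known from earlier results of these data. The female medians were small: 7 and 11 of 27 members were below day 1 in female 1 and female 2, against 26 in each male preparation. The median over all genes was -0.00978 in female 1 and 0.0204 in female 2. The difference between the sexes in the mitosis median was not tested. For single members the difference in change was tested by limma, and 0 of 27 mitosis members passed, with 15 at an unadjusted p under 0.05. Over all genes the same test passed for 0 of 11861, with 565 at an unadjusted p under 0.05.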

How the results depend on the processing

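The arrays and their number limit these results: with 2 preparations a group, leaving out 1 puts every day of that sex at 1 array. Each fit shares 1 estimate of the spread per gene over the groups, and a group of 1 array adds nothing to it. From day 1 to day 14 no median change over the replication or mitosis members changed sign under the alternatives run. Nor did such a median move by more than the spread between preparations. Smaller medians were less stable. From day 1 to day 7 the fitted replication median in females was 0.0171, but in female 1 alone it was -0.06. None of the 78 member calls changed sign. With preparation as a block, members passing became 0 in males from day 1 to day 7, 1 over both sexes from day 7 to day 14 and 3 in females from day 1 to day 14 (Ccne1, Gins2 and Rrm2), and no other count of members moved by over 1.5 times. Trend and robust moderation gave 2 members over both sexes and 4 in males from day 1 to day 7. From day 7 to day 14 it gave 7 over both sexes, 1 in males and 1 in females. It also gave 2 members (Kif20a and Plk1) for the sex difference in change from day 1 to day 14, 7 for males against females at day 7 and 25 at day 14. The filter gave 2 over both sexes from day 1 to day 7 and 1 in males from day 7 to day 14, a step for which median centring and the quantile normalization also gave 1. With each preparation left out, members passing ranged from 8 to 15 over both sexes, from 1 to 21 in males and from 0 to 1 in females between day 1 and day 14. Males against females at day 14 ranged from 0 to 6, and the range was 0 to 0 for day 7 against day 1 over both sexes and in males, for day 14 against day 7 over both sexes, and for males against females at day 1 and at day 7. The cause of these shifts was not tested beyond the fewer arrays in the fits that leave 1 preparation out.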
